A study of Homo sapiens with 4 samples.

Results

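The matrix metalloproteinases and their tissue inhibitors were read from Hep3B cells in which UNC50 had been knocked down. The set was 10 genes, namely MMP1, MMP2, MMP7, MMP9, MMP10, MMP14, MMP15, TIMP1, TIMP2 and TIMP3, and its probes were all those other than controls that carry 1 of these gene names in the array design. These were 10 probes, 1 for each gene, of 42405 probes and 34809 gene names on the array. Hep3B is a human liver cancer line that carries hepatitis B virus and is without the tumour suppressor genes RB and P53. The cells had been transfected by lipofection with pLKO.1 plasmids that carry a hairpin RNA and were then selected in puromycin at 1 µg/ml, so that the plasmid and the selection were shared by all groups. The control carried a mock hairpin (shR-MOCK, 1 array). The knockdown group carried 1 of 3 hairpins against the UNC50 mRNA, at 467 bp (shR-467), 554 bp (shR-554) or 749 bp (shR-749), with 1 array for each, and knockdown values are given in this order unless a hairpin is named. The 3 hairpins were treated as replicates of knockdown, and nothing in the labels says whether further cultures stood behind an array. The p-values and intervals come from a limma fit, which combines a gene's own spread between these hairpins with that of genes of similar level. They do not measure a spread between repeated cultures of 1 hairpin.

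Matrix metalloproteinases are zinc-dependent proteases that are made as inactive proenzymes and cut collagens, other matrix proteins and proteins at the cell surface. Most are secreted, a few are anchored in the plasma membrane, and the TIMPs bind the active site of the mature enzyme and block it. In the liver these enzymes and inhibitors take part in the turnover of scar matrix and in tumour invasion, and much of their RNA comes from cells other than hepatocytes. UNC50 is a membrane protein of the Golgi apparatus, and the study asked what its loss changes in hepatocellular carcinoma cells.

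The level of each gene is the log2 of the scanner's background-subtracted signal minus the 75th percentile of the array, and a difference is that of a hairpin minus the mock array on this scale. A probe counts as well above background on an array where the scanner software marks at least 1 of every 2 of its spots so. From 67.6% to 73.6% of an array's spots passed this mark. The arrays shared a slide and a scan. UNC50 itself, the target, stood at 24.0%, 13.7% and 18.7% of mock with the hairpins. All 10 markers of hepatocytes or hepatoma cells, ALB and AFP among them, were well above background on every array. Markers of other cell types were in part detected as well. Of 10 fibroblast and stellate cell markers 3 to 5 were well above background on an array, LUM and RGS5 on all 4, while COL1A1, COL3A1, THY1, ACTA2 and LRAT were so on none. Of 7 endothelial markers 5 were (PECAM1, VWF, CDH5, STAB2 and CLEC4G) on all 4 arrays and KDR and TEK on none, and of 7 leukocyte and Kupffer cell markers 5 were on all 4 (PTPRC, CD14, CD68, CD3E and CD79A). The labels name only Hep3B cells, a single line, as the source, and the origin of these marker signals was not tested. The RNA came from whole cultures, in which fewer cells expressing a gene and less RNA per cell cannot be told apart.

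Of the 10 genes, only MMP7 was at least 1.5-fold lower than on the mock array with every hairpin, as were 1.23% of the 25149 genes tested (0.537% were that much higher), and none was at least 1.5-fold higher with any. MMP7, which encodes matrilysin, a small secreted protease of epithelial cells, stood at 40.8% of its mock level on average (mean log2 difference -1.29 ± 0.15, SD, n = 3 hairpins). MMP15, which encodes a membrane-anchored protease, and TIMP1, a secreted inhibitor, were lower by smaller amounts, TIMP1 with shR-554 by next to nothing (97.1% of mock). MMP9, MMP14 and TIMP2 stayed within 0.4 of the mock array on the log2 scale with each hairpin. MMP2 and MMP10 were not well above background on any array, MMP1 was so only on the mock array, and TIMP3 was near the limit.

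From these same arrays the study had already listed MMP7 among its regulated genes, as lower with each hairpin. It also reported that real-time PCR of MMP7, in cells with UNC50 knocked down or overexpressed, bore out the array result. The counts given for the set are therefore not independent of the study's own choice of MMP7. On these arrays the clearest difference among the genes rests on the MMP7 probe alone, which is why that probe is shown. By the array annotation it lies at chr11:102394029-102394088 of hg19, on the minus strand, starts at base 704 of the transcript and can be read through in 1 of its 3 forward frames without a stop. Its sequence follows.
MMP7 probe: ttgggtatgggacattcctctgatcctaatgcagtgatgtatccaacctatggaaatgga
The promoters of MMP7 and MMP15 are shown next, since these were the protease genes that were lower with every hairpin. Each is the 250 bases before the start of the gene in RefSeq on GRCh38.p14, at chr11:102530748-102530997 on the minus strand for MMP7 and at chr16:58025504-58025753 on the plus strand for MMP15. Capitals mark the letters that match 1 of 5 motifs searched on both strands, with no overlap between motifs: AP-1 (TGANTCA), an ETS-type site (AGGAAG), TCF/LEF (CTTTGNA), Sp1 (GGGCGG) and the TATA box (TATAAA).
MMP7 promoter: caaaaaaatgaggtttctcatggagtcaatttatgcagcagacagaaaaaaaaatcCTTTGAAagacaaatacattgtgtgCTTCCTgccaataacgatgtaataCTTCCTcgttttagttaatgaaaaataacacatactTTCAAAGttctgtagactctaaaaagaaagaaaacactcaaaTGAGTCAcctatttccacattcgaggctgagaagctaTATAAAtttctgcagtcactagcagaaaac
MMP15 promoter: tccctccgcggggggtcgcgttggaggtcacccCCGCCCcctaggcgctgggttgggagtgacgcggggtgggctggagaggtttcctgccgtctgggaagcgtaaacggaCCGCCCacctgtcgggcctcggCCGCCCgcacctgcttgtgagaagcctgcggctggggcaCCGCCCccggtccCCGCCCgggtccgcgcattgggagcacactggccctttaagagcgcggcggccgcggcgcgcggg
The MMP7 window held 1 AP-1 match, whose first letter lay 67 bases before the start, 2 ETS-type matches at 169 and 145 bases, 2 TCF/LEF matches at 194 and 109 bases and a TATA match at 30 bases. Sp1 had no match in it. The MMP15 window held 5 Sp1 matches, at 217, 139, 117, 78 and 65 bases, and none of the other 4 motifs. The windows also differed in composition, with 33.6% G and C for MMP7 and 74.8% for MMP15. Among 35116 promoter windows of the same length, 6.57% held the AP-1 letters, 28.7% the ETS-type letters, 12.8% the TCF/LEF letters, 42.6% the Sp1 letters and 3763 of them the TATA letters. A window was given for 6 of the 10 genes. MMP10, which lies near MMP7 on chromosome 11 and was not well above background in these cells, also held an AP-1 match at 67 bases and a TATA match at 31 bases. TIMP1 held an ETS-type match at 87 bases and Sp1 matches at 135 and 45 bases, MMP14 an Sp1 match at 66 bases and TIMP3 5 Sp1 matches. MMP1, MMP2, MMP9 and TIMP2 were not in the promoter table. A match describes letters and is not a measured binding site.

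The secreted proteases come first. MMP7 was read from 2 spots, and its signal was 266.9 with shR-MOCK and 93.05, 123.5 and 122.5 with the hairpins. All 3 knockdown arrays were well below the mock array, and they lay close together. On the log2 scale its level was -2.07 with shR-MOCK and -3.39, -3.49 and -3.21 with the hairpins, which is 39.9%, 37.3% and 45.5% of the mock level. The mock spots read 261 and 273 and no spot of a knockdown array read above 140, which describes technical repeats only. At least 1.5-fold lower with every hairpin were 0.475% of the genes well above background on all 4 arrays. The mean difference in limma was -1.29 (SE 0.315, 95% CI -2.04 to -0.55), with an unadjusted p of 0.00455 and an adjusted p of 1.00 from limma. The gene was not at the edge of detection, since its lowest signal was 3.65 times that of the dimmest spot marked well above background on that array. Of 21488 genes well above background on all 4 arrays, 43 (0.2%) had a lower mean difference than MMP7. Its spread between hairpins was not unusual, as 28.4% of these genes had a smaller SD.

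**Figure D1:**
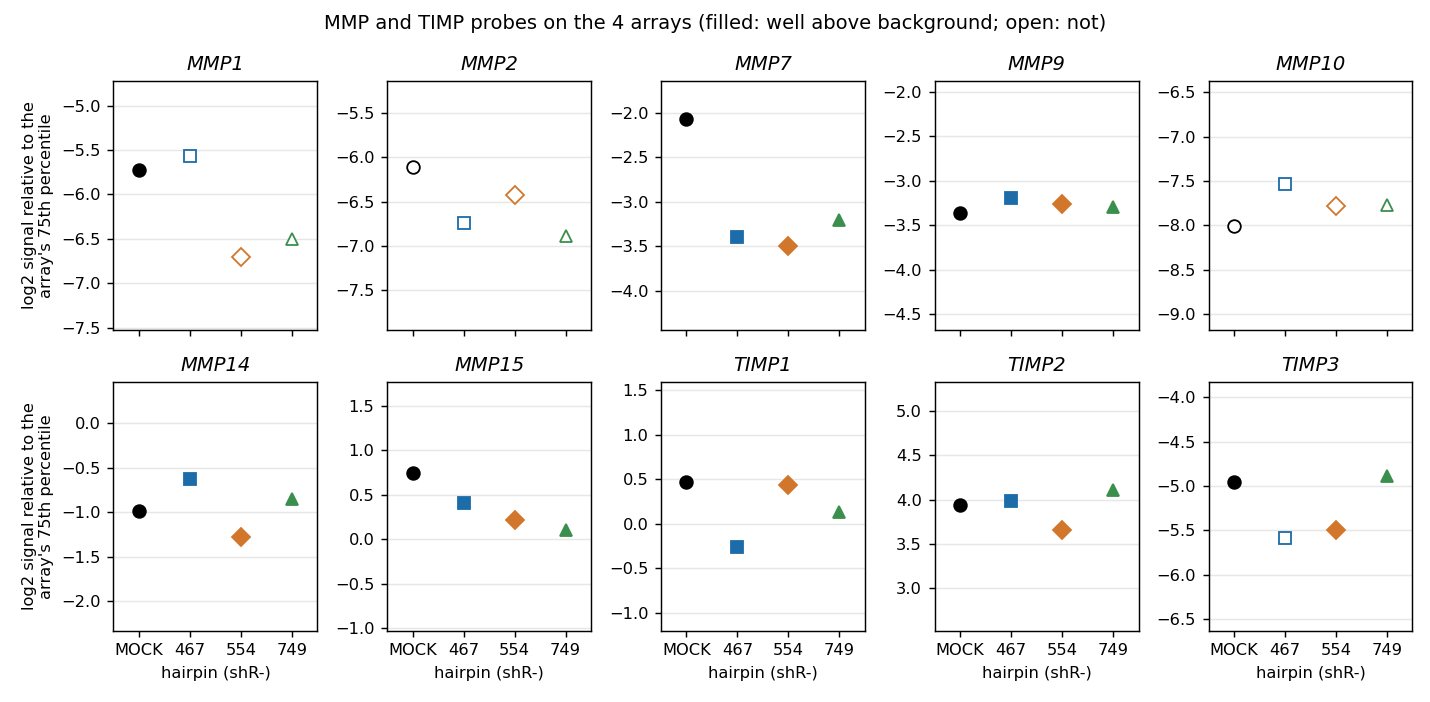
Level of each probe on the 4 arrays, as log2 signal relative to the 75th percentile of the array, 1 panel for each gene and 1 point for each hairpin; every panel spans 2.8 log2 units and levels are not comparable between panels. Filled points were well above background and open points were not. In the MMP7 panel the mock point at -2.07 stands above the 3 knockdown points, between -3.49 and -3.21.

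MMP9 encodes gelatinase B, which cuts denatured collagen and collagen of basement membranes. Its probe was printed in 10 spots, and its signal was 108.8 with shR-MOCK and 106.98, 145.3 and 115.6 with the hairpins. After scaling, the differences were 0.17, 0.11 and 0.07, a mean of 0.12 ± 0.05 (SD, n = 3). They were all above 0, as for 20.2% of the genes well above background on all 4 arrays. The SD between spots of an array, which is technical, was 0.29 to 0.40 on the log2 scale. In limma the 95% CI of the MMP9 difference ran from -0.63 to 0.87 (unadjusted p = 0.724). Its SE there was 0.317, since the fit draws on the spread of other genes as well.

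MMP1 encodes interstitial collagenase, which opens the triple helix of fibrillar collagens. Its signal was 21.2 with shR-MOCK and 20.6, 13.3 and 12.5 with the hairpins. Only the mock array counted as well above background, with 5 of 10 spots, against 1 of 8 spots used with shR-467 and none with shR-554 and shR-749. The mock signal lay at the lowest signal so marked, 21.2, and no bound on a fold could be given. The measured differences for MMP1 were 0.16, -0.99 and -0.78.

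MMP2, which encodes gelatinase A, read 16.2 with shR-MOCK and 9.13, 16.2 and 9.51 with the hairpins. MMP10, which encodes a stromelysin, read 4.35 with shR-MOCK and 5.28, 6.32 and 5.16 with the hairpins. Neither was well above background on any array, so neither level nor difference could be given for these 2 genes, and both were left out of the counts of genes tested. This does not show that MMP2 and MMP10 are silent in the cells.

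Both membrane proteases were bright. MMP14 activates the proenzyme of gelatinase A together with TIMP2. Its signal was 565 with shR-MOCK and 635, 573 and 626 with the hairpins. After scaling the differences were 0.36, -0.29 and 0.13 (mean 0.07 ± 0.33, SD, n = 3), so the mock array lay between the hairpins. The 95% CI of MMP14 from limma, -0.66 to 0.80 (unadjusted p = 0.831), leaves room for a 1.5-fold difference in either direction.

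MMP15 belongs to the same membrane-type class as MMP14. Its signal was 1870 with shR-MOCK and 1300, 1619 and 1215 with the hairpins. Relative to the mock array MMP15 stood at 79.6%, 69.8% and 64.4% with the hairpins. Every knockdown array lay below the mock array, as for 18.4% of the 21488 genes well above background on all arrays. The differences were -0.33, -0.52 and -0.63, and only shR-749 passed 1.5-fold. The mean difference of MMP15 was -0.49 ± 0.15 (SD, n = 3; limma 95% CI -1.03 to 0.04, unadjusted p = 0.0653, adjusted p = 1.00).

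**Figure D2:**
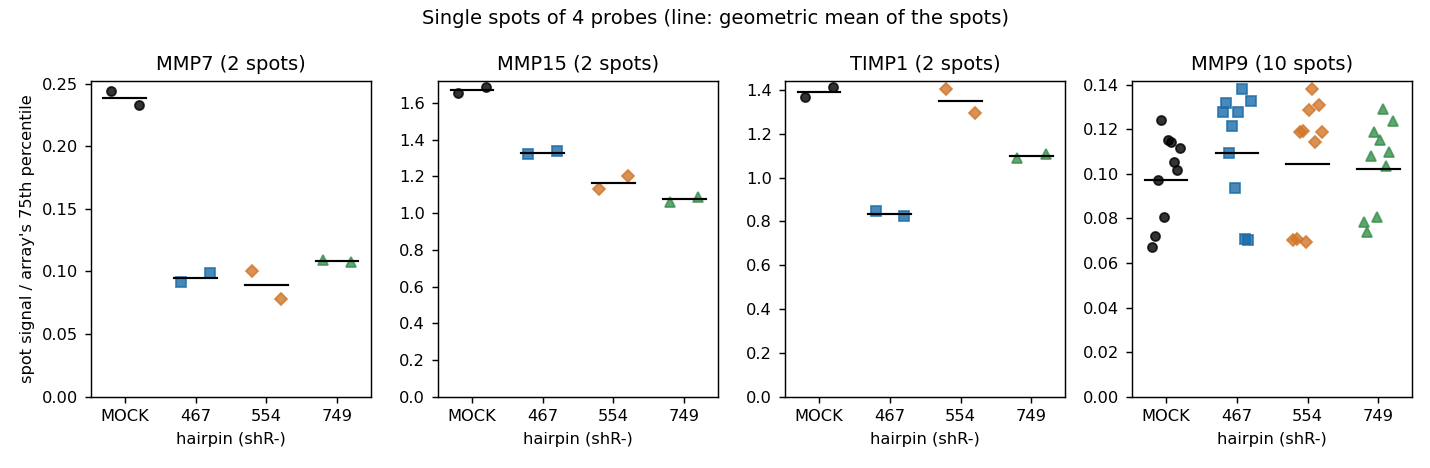
Signal of each single spot divided by the 75th percentile of its array (linear axis from 0) for MMP7, MMP15, TIMP1 and MMP9 on the 4 arrays; the black line is the geometric mean of the spots. The MMP7 and MMP15 spots of the mock array lie above every knockdown spot, the TIMP1 spots with shR-554 overlap the mock spots, and the 10 MMP9 spots overlap between all arrays.

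The inhibitors showed no common direction. TIMP1 had a signal of 1555 with shR-MOCK and 817, 1874 and 1240 with the hairpins. It stood at 60.2% of the mock level with shR-467, at 97.1% with shR-554 and at 79.0% with shR-749, so that the spread between hairpins was the largest among the 6 genes of the set well above background on all arrays. The mean difference of TIMP1 was -0.37 ± 0.35 (SD, n = 3; limma 95% CI -1.08 to 0.34, unadjusted p = 0.254).

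TIMP2 blocks most of the family and also serves as the adaptor through which MMP14 binds its proenzyme substrate. Its signal was 17200 with shR-MOCK and 15450, 17544 and 19498 with the hairpins. The differences of 0.04, -0.28 and 0.17 fell on both sides of 0 (mean -0.02 ± 0.23, SD, n = 3). The limma 95% CI of TIMP2 was -0.53 to 0.48 (unadjusted p = 0.911), which excludes a mean difference of 1.5-fold under that fit.

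TIMP3, which stays bound to the matrix, was dim, with a signal of 36.2 with shR-MOCK and 20.4, 30.7 and 38.3 with the hairpins. It was not well above background with shR-467, and with shR-554 only 1 of its 2 spots was. The measured differences of TIMP3 were -0.63, -0.55 and 0.07, the first of them read from a signal not well above background, and no direction is given (limma unadjusted p = 0.550).

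**Figure D3:**
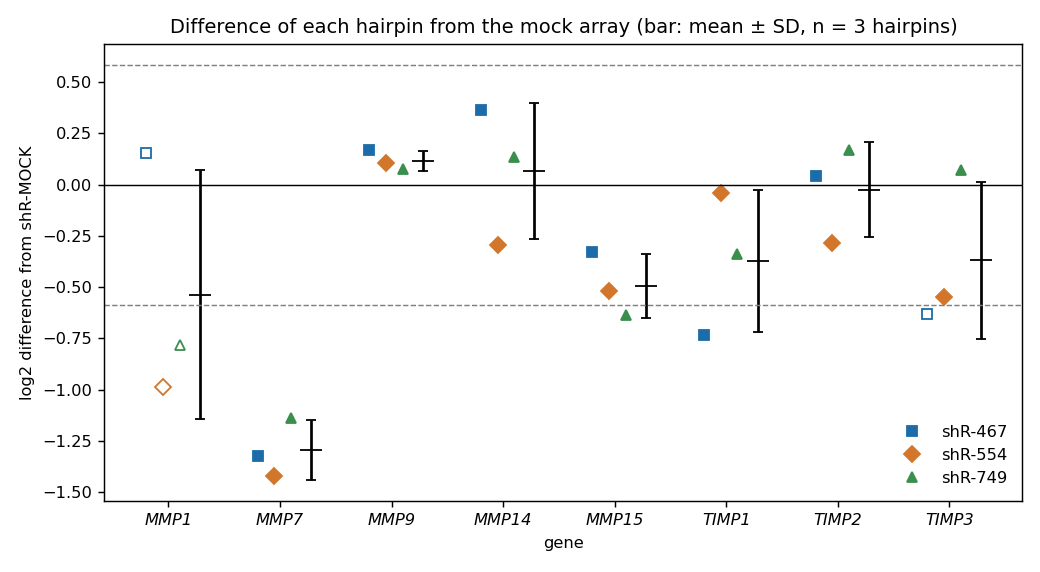
Log2 difference from the mock array for the 8 genes kept by the filter; squares, diamonds and triangles are shR-467, shR-554 and shR-749 (open where not well above background), black bars are the mean ± SD over the 3 hairpins, and dashed lines mark 1.5-fold. All MMP7 points lie beyond the lower line, and no point lies above the upper line.

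Of the 10 genes, 8 passed the filter for genes tested (bright enough on the mock array, or on each of the 3 knockdown arrays), MMP1 through its mock array alone and TIMP3 through the mock array as well. Counts are therefore given for the 6 genes well above background on all 4 arrays. Of these, 1 (MMP7) was at least 1.5-fold lower on average, against 2.92% of the 21488 such genes, and the same gene was at least 1.5-fold lower with every hairpin, against 0.475%. None of the 6 was at least 1.5-fold higher on average, against 2.34%. MMP7, MMP15 and TIMP1 were lower with every hairpin by any amount, 3 of 6 against 18.4% of such genes, but TIMP1 with shR-554 differed by only -0.04, and MMP9 was higher with every hairpin, 1 of 6 against 20.2%. The median of their mean differences was -0.20, beside 0.002 for all such genes. With shR-467, 2 of the 6 were at least 1.5-fold lower (MMP7 and TIMP1), against 4.32%. With shR-554 only MMP7 was, against 8.33%, and with shR-749 MMP7 and MMP15 were, against 6.33%. None of the 6 was at least 1.5-fold higher with any hairpin, against 6.25%, 4.49% and 5.3% of such genes. Among all 25149 genes tested, 7.69% were at least 1.5-fold lower on average.

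**Figure D4:**
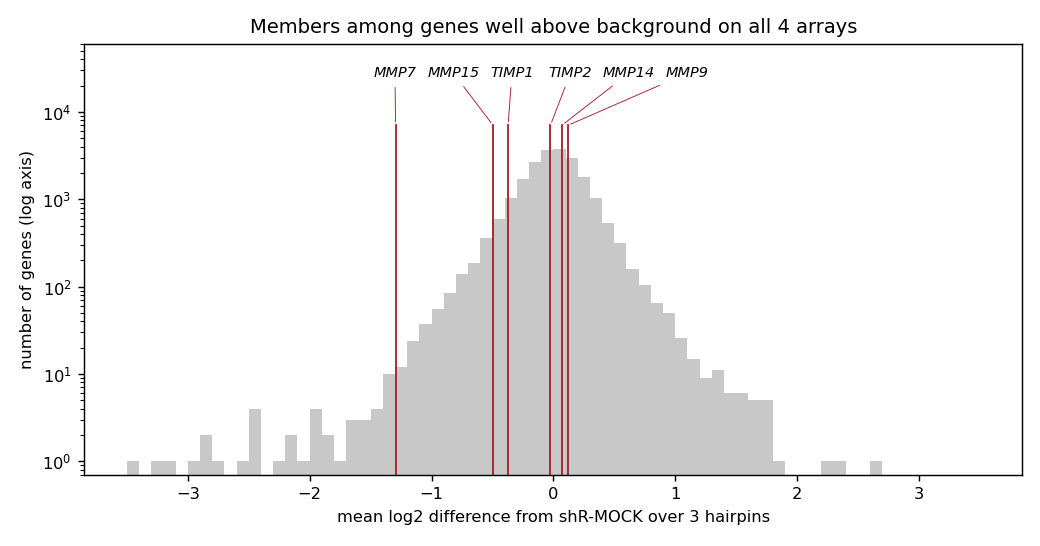
Number of genes (log axis) by mean log2 difference from the mock array over 3 hairpins, for genes well above background on all 4 arrays, with red lines at the 6 genes of the set, which are left out of the bars. MMP7 at -1.29 lies in the lower tail, MMP15 and TIMP1 on the lower flank, and TIMP2, MMP14 and MMP9 near the centre.

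No gene of the set passed limma's adjusted threshold, and neither did any other gene, UNC50 included, as limma called 0 of 25149 genes at an adjusted p under 0.05 and 381 (1.51%) at an unadjusted p under 0.05. MMP7 was the only gene of the set among these 381. With 1 mock array against 3, an exact permutation test cannot fall below 0.25, and the spread between mock cultures is not known.

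The difference between the changes of a pair of genes is free of any constant by which a whole array is scaled, though not of quantile normalization or of the background correction. MMP7 was lower relative to TIMP1 by -0.59, -1.38 and -0.80 (mean -0.92 ± 0.41, SD, n = 3). Relative to TIMP2 it was lower by -1.37, -1.14 and -1.31 (mean -1.27 ± 0.12), and relative to MMP9 by -1.50, -1.53 and -1.21 (mean -1.41 ± 0.17). With each hairpin the MMP7 signal was thus lower than those of both inhibitors and of the other secreted protease relative to the mock array. MMP14 and MMP15 also parted, with MMP14 higher relative to MMP15 by 0.69, 0.23 and 0.77 (mean 0.56 ± 0.29). MMP14 against TIMP2 gave 0.32, -0.01 and -0.03 (mean 0.09 ± 0.20), and MMP15 against TIMP2 gave -0.37, -0.24 and -0.80 (mean -0.47 ± 0.30).

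The rest of the system was read from 6 lists of genes, none of which held a gene with an adjusted p under 0.05 in limma and 1 of which held a gene (TNF) with an unadjusted p under 0.05. The counts below stand beside the 1.23% of all genes tested that were at least 1.5-fold lower, and the 0.537% higher, with every hairpin. With only genes detected on each of the 4 arrays this balance turned, to 102 lower and 122 higher. Of 16 other matrix metalloproteinases 9 were tested, 7 of them well above background on all arrays, and 0 were at least 1.5-fold lower or higher with every hairpin. By the brightest probe of each gene, 1 of these 7 lay on the same side of the mock array with every hairpin. Of all genes well above background on all 4 arrays, 18.4% were lower and 20.2% higher with every hairpin by any amount. The 1 gene was MMP21, a dim gene that read 21.2 on the mock array and 26.7, 30.7 and 33.0 with the hairpins (differences 0.53, 0.22 and 0.63). A dimmer second probe of MMP19, well above background on all 4 arrays, was higher by 0.45, 0.16 and 0.65, while the brighter MMP19 probe gave 0.06, -0.28 and 0.31. MMP3, MMP8, MMP12 and MMP13, stromelysin and collagenase genes and the macrophage elastase gene, were not well above background on any array. The median of the mean differences over the 9 genes tested was 0.03, beside -0.03 over all genes tested.

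Of 8 other inhibitors 5 were tested and 0 passed 1.5-fold with every hairpin in either direction (median 0.07). RECK, a membrane-anchored inhibitor of these proteases, was higher with every hairpin, at 193 with shR-MOCK and 269, 282 and 311 with the hairpins (differences 0.68, 0.24 and 0.68, mean 0.53 ± 0.25, SD, n = 3). TIMP4, the remaining TIMP, read 55.6 on the mock array and 56.7, 56.1 and 68.1 with the hairpins and lay on both sides of the mock array after scaling.

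All 14 activators and inducers were well above background on every array, and 0 passed 1.5-fold with every hairpin in either direction (median -0.06). PLAU, which encodes urokinase, the protease that makes plasmin, read 689 with shR-MOCK and 484, 270 and 388 with the hairpins, with differences of -0.31, -1.66 and -0.84 (mean -0.94 ± 0.68, SD, n = 3). SERPINF2, which encodes the plasmin inhibitor antiplasmin, was higher by 0.78, 0.28 and 0.81 (mean 0.62 ± 0.30). ST14, which encodes the membrane serine protease matriptase, had a mean difference of -0.41 ± 0.21, and BSG, which encodes the inducer basigin, one of 0.31 ± 0.13.

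Among 13 ADAM and ADAMTS genes 12 were tested and 1 was at least 1.5-fold lower with every hairpin, 0 higher (median -0.18). This was ADAM9, named after its values were seen, which read 21.7 with shR-MOCK, the only array to show it well above background, against 11.1, 7.19 and 10.1 with the hairpins, so that its differences are measured against background. Of those well above background on all arrays, ADAMTS9 had a mean difference of -0.47 ± 0.12 (SD, n = 3), ADAM28 of -0.41 ± 0.17, ADAM15 of -0.28 ± 0.17 and ADAMTS13 of 0.38 ± 0.29.

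Of 22 substrates in the matrix and at the cell surface 20 were tested, 1 of which was at least 1.5-fold lower with every hairpin and 0 higher (median -0.11). This was TNF, whose membrane-bound precursor is cut by ADAM17 and can be cut by MMP7. TNF read 147 with shR-MOCK and 61.9, 72.3 and 63.2 with the hairpins. Its differences were -1.06, -1.34 and -1.24 (mean -1.21 ± 0.14, SD, n = 3; limma unadjusted p = 0.0135, adjusted p = 1.00). HSPG2 and COL4A2, genes of perlecan and collagen of the basement membrane, had mean differences of -0.25 and -0.22.

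Of 17 AP-1, ETS and beta-catenin pathway factors that act on metalloproteinase promoters 16 were tested, with 1 at least 1.5-fold lower with every hairpin and 0 higher (median -0.03). This was TCF7L2, a TCF/LEF factor, which read 143 with shR-MOCK and 81.0, 106 and 87.7 with the hairpins (differences -0.62, -0.74 and -0.72, mean -0.70 ± 0.06, SD, n = 3; limma unadjusted p = 0.0752). The ETS factor ETV4 read 312 with shR-MOCK and 145, 378 and 130 with the hairpins, and its differences of -0.91, -0.03 and -1.28 left it close to the mock level with shR-554. ETV1 had a mean difference of -0.39 ± 0.22 and ETS2 of 0.41 ± 0.31. TCF/LEF and ETS-type letters stand in the MMP7 window printed above, and a link between these factors and MMP7 was not tested.

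The 5 genes whose differences lay nearest to those of MMP7 over the 3 hairpins were found among 21487 others well above background on all arrays, by Euclidean distance on the log2 scale. They were a long non-coding RNA named in the array design only by its place on chromosome 6 (distance 0.24), TNF (0.30), the aldose reductase gene AKR1B1 (0.35), the cytochrome gene CYP4F11 (0.39) and ENST00000378525, a transcript named by its identifier (0.41). AKR1B1 differed by -1.34, -1.50 and -0.80 and CYP4F11 by -1.57, -1.13 and -1.06. All differences use the same mock array, and likeness over 3 of them describes the arrays and nothing more.

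The hepatocyte and hepatoma markers also differed between the groups. Their summed level, in units of the 75th percentile of the array, was 415 with shR-MOCK and 590, 499 and 567 with the hairpins. Of the 10 markers 3 were at least 1.5-fold higher with every hairpin (APOA1, TTR and FGA) and 0 lower, beside 0.537% and 1.23% of all genes tested. The median difference of the 10 markers was 0.31, beside 0.002 for all genes well above background on all 4 arrays. The summed level of the fibroblast and stellate markers was 0.245 with shR-MOCK and 0.314 to 0.357 with the hairpins, that of the endothelial markers 0.316 and 0.328 to 0.426, and that of the leukocyte markers 5.91 and 5.76 to 7.77. These sums add probes of different brightness, and the part of the markers in the MMP7 difference was not tested.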

How the data were processed

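Total RNA of Hep3B cells (4 samples) was labelled with Cy3 and hybridised to 1-colour Agilent arrays. The authors deposited the scanner output of Agilent Feature Extraction 10.7.1.1, whose processed intensity is background-subtracted, and a table of log2 values, found to be quantile-normalized probe means. Levels are the log2 of that intensity after subtracting each array's 75th percentile over spots other than controls. Spots marked as outliers were left out (254 to 466 an array) and the spots of a probe averaged. No spot was saturated. A probe entered the fit if marked well above background with shR-MOCK or with each of the 3 hairpins, taking the brightest kept probe for each of 25149 genes. Signal over background and the number of arrays limit the precision.

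Groups came from the sample labels. Knockdown was compared with mock by a 1.5-fold threshold, after the study's methods, and by limma 3.58.1 (trend, Benjamini-Hochberg adjustment over all genes, 2 residual and 4.98 prior degrees of freedom), which assumes for the single mock array the spread seen between hairpins. On simulated data with 26058 probes, 90 of 100 probes changed 2-fold and 99 of 100 changed 4-fold passed 1.5-fold on average, and limma called 0. These probes were all well above background on all 4 arrays, and the simulated mock had the spread of the hairpins. The counts therefore do not cover dim genes or a mock that varies more. Unchanged probes that passed 1.5-fold were not counted.

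Genes named were all members, UNC50, up to 4 from each list (well above background on all 4 arrays, same direction with every hairpin, largest mean difference) and the 5 nearest to MMP7. Some undetected metalloproteinases and MMP19, ADAM9, TIMP4 and the markers are named outside this rule, after their values were seen. The values of 1 gene that the rule picks are not reported here. The members, lists and tests were chosen with earlier results of these data known. The probe sequence and hg19 positions are from the array annotation, and promoters and starts from RefSeq (GRCh38.p14). Exons on hg19 were not used here. Python 3.11.15 and R 4.3.3 were used.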

Additional observations from a re-analysis of the deposited data

How the results depend on the processing

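The mean difference of MMP7 ran from -1.43 to -0.92 over its 12 alternatives, and its sign did not turn. Many of these could not turn it. The value stayed at -1.29 with dim signals set to the detection limit and with either other filter on dim probes. It also stayed there with marked spots kept and with the probes of a gene averaged. Leaving out 1 hairpin could not turn the sign, as MMP7 was lower with every hairpin. With normexp background correction and quantile normalization the difference was smallest (-0.92), a shift larger than the SD over hairpins (0.15). This setting adds an offset of 50 to every signal, which makes log2 differences between dim signals smaller. The parts of the offset and of the correction itself were not separated. MMP15 ran from -0.58 to -0.42, TIMP1 from -0.54 to -0.19 and MMP9 from 0.07 to 0.14. MMP14 turned sign when shR-467 was left out (-0.08), and TIMP2 with normexp (0.07) and when shR-554 was left out (0.10). MMP1 turned to 0.15 with dim signals set to the detection limit of the array, so its direction rests on signals under that limit, and TIMP3 then stood at -0.23. Members at least 1.5-fold lower or higher on average, 1 in the report, were 2 with marked spots kept, MMP1 being added, and 1 to 2 with a hairpin left out, namely 2 without shR-467 (MMP1, -0.88) and 2 without shR-749 (TIMP3, -0.59). With every hairpin they were 1 to 2, MMP1 being added without shR-467.

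The background counts depended on dim probes. Genes at least 1.5-fold different on average, 2510 in the report, were 541 with normexp (275 lower and 266 higher, against 1935 and 575), 1536 with dim signals raised to that limit (919 and 617), 1133 with probes detected on all 4 arrays (629 and 504), 5365 without a filter (3368 and 1997) and 686 at 2-fold, and 2357 to 3712 with a hairpin left out. With quantile normalization they were 1574 lower and 677 higher. Genes different with every hairpin, 444 in the report, were 146, 292, 224 (102 lower and 122 higher, against 309 and 135), 980 and 131 in the same order, and 893 to 1674 with a hairpin left out, as fewer hairpins had to pass. limma calls, 0 in the report, were 4 with normexp and 0 to 2 with a hairpin left out (2 without shR-554 and 1 without shR-749), and the cause was not tested. Of 173 values under alternatives, 151 moved by less than the SD over hairpins or stayed within 1.5 times the count. Each member had 1 probe, so the filters on dim probes and averaging over probes could not move its value. The tally is therefore no measure of how firm the members' differences are. A block for slide or scan could not be fitted, since these were common to the arrays. No paired analysis was possible because there was 1 mock array and the hairpins are different reagents.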

Other observations

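In the authors' table of processed log2 values, 5 of 42405 probes departed by more than 0.1 on any array from the values recomputed by quantile normalization, and the MMP7 probe was 1 of them. Its value in the table was lower than the recomputed one by 0.32 on the shR-467 array (-0.32) and by 0.02 on the shR-554 array (-0.02), while those of shR-MOCK and shR-749 differed by at most 0.00227. The largest departure among the other 9 members was 0.00574. As a result the MMP7 differences, in order of target position, were -1.72, -1.42 and -1.14 in the table and -1.40, -1.40 and -1.14 when recomputed. The table thus places shR-467 lowest for MMP7, whereas the recomputed values of shR-467 and shR-554 were alike. The cause of the departure was not tested.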
